A study of Arabidopsis thaliana with 8 samples.

Results

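The transcripts described here were low in leaves of unsalted wild-type Arabidopsis thaliana and higher in all other leaves of the study. A probe set (the spots that read 1 transcript) was a member when the lowest of the 6 arrays outside unsalted wild type exceeded the highest unsalted wild-type array by more than 1.5 log2 units. A set list of well-known genes was left out. Of 22746 probe sets, 175 were members, or 0.769%. Another 14 passed the threshold but belonged to the left-out genes, among them EXLA1, EXLA2, EXO and STZ. ZAT12, TCH2, TCH3, TCH4, WRKY33 and WRKY40 were also to be left out, but the table of probe sets gave them no probe set of their own, so members without a gene name may include them. The members were chosen by these log2 signals, so every difference from unsalted wild type is given as a description and carries no test.

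The study set a transgenic line, M6PR, beside the wild type Col, with and without NaCl. M6PR is mannose-6-phosphate reductase, an enzyme of mannitol synthesis known from celery, and the series title describes the plants as mannitol producers with salt tolerance. The 4 groups had 2 arrays each: M6PR with 100 mM NaCl (M6PR 100 mM), M6PR without NaCl (M6PR 0 mM), Col with 100 mM NaCl (Col 100 mM) and Col without NaCl (Col 0 mM). Each array read leaf RNA pooled from at least 15 seedlings of 1 pot. All plants were 20 days old and were kept under short days (10 h light, 14 h dark). Salt was given from day 14 for 6 days, in steps of 50 mM every 2 days, dissolved in dilute Hoagland solution. The promoter of the transgene and the number of transgenic lines are not given in the labels, and no probe set was read for the transgene itself. The M6PR samples are described as Ws, another accession, and the labels say that the Col arrays also belong to another series, so transgene, accession and batch cannot be told apart wherever the lines are compared.

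As background, leaf cells answer touch, wounding, salt, microbial patterns and shortage of sugar with a fast rise of short-lived transcripts. These encode calmodulin-like proteins, which bind calcium and pass its signal on, transcription factors of the WRKY, bZIP and AP2/ERF families, U-box ubiquitin ligases that mark signalling proteins for removal, and enzymes that modify the pectin of the cell wall. Many of them return to a low level within hours, so a leaf at rest has little of each.

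The deposited values were log2 intensities with a shared floor of 2.15, and 27.9% to 29.2% of probe sets lay within 0.01 of it on each array. A log2 signal of 4 is used as the background level, and a fold against a group below it is a lower bound. The number of arrays limits the precision of every value. In M6PR 100 mM, replicate 1 stood apart from replicate 2 in the members by a median of 0.82 log2 units. Over all probe sets, and as a description, that array had r = 0.983 with M6PR 0 mM replicate 1 and r = 0.982 with its own replicate. Its r was 0.981 with each Col 0 mM array, 0.980 with M6PR 0 mM replicate 2, and 0.953 and 0.973 with Col 100 mM. Where a count of calls, a count of group order, a salt change in M6PR or a named gene's fold rested on it by over 1.5 times, the value without it, a choice made after seeing the data, is given too. Markers of mesophyll (4 of 21 listed genes measured: LHCB4.1, RCA, PRK and SBPASE) averaged 13.93 to 14.35 on all arrays. The flower marker AMS and the seed marker PAP85 lay at the floor on all 8 arrays. The root marker PYK10 had 2.83 and 6.27 in M6PR 100 mM, 2.82 and 2.15 in M6PR 0 mM, 10.28 and 7.51 in Col 100 mM, and 2.22 and 2.32 in Col 0 mM. The root hair marker EXPA7 stayed below background on all arrays. The trichome regulator TRY had 7.26 and 4.32 in M6PR 100 mM, 4.09 and 4.16 in M6PR 0 mM, 5.24 and 4.999 in Col 100 mM, and 8.25 and 8.16 in Col 0 mM. PYK10 was highest in Col 100 mM and TRY in Col 0 mM, and the part of root tissue or epidermal cells in the members' levels was not tested. In pooled leaf RNA, fewer cells of a type and less RNA per cell cannot be told apart.

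The members had a median log2 signal of 8.72 and 9.58 on the arrays of M6PR 100 mM, 9.49 and 9.67 in M6PR 0 mM, 9.003 and 9.33 in Col 100 mM, and 5.19 and 5.27 in Col 0 mM. The median over all probe sets lay between 5.01 and 5.32 on every array, and the members' median was near it in Col 0 mM alone. Over Col 0 mM, the median difference of the members was 3.61 log2 units in M6PR 100 mM, 3.95 in M6PR 0 mM and 3.46 in Col 100 mM, where all probe sets had a median of 0 in each. For 118 members Col 0 mM was at or above the background level, and their median fold over Col 0 mM was 9.43 in M6PR 100 mM, 11.8 in M6PR 0 mM and 8.28 in Col 100 mM. The other 57 were below it in Col 0 mM alone, and 0 members had a mean below it in any other group. The gap, from the highest Col 0 mM array to the lowest of the other 6, had a median of 2.24 log2 units. It exceeded 4 in 18 members and 3 in 46, and was under 2 in 65.

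**Figure D1:**
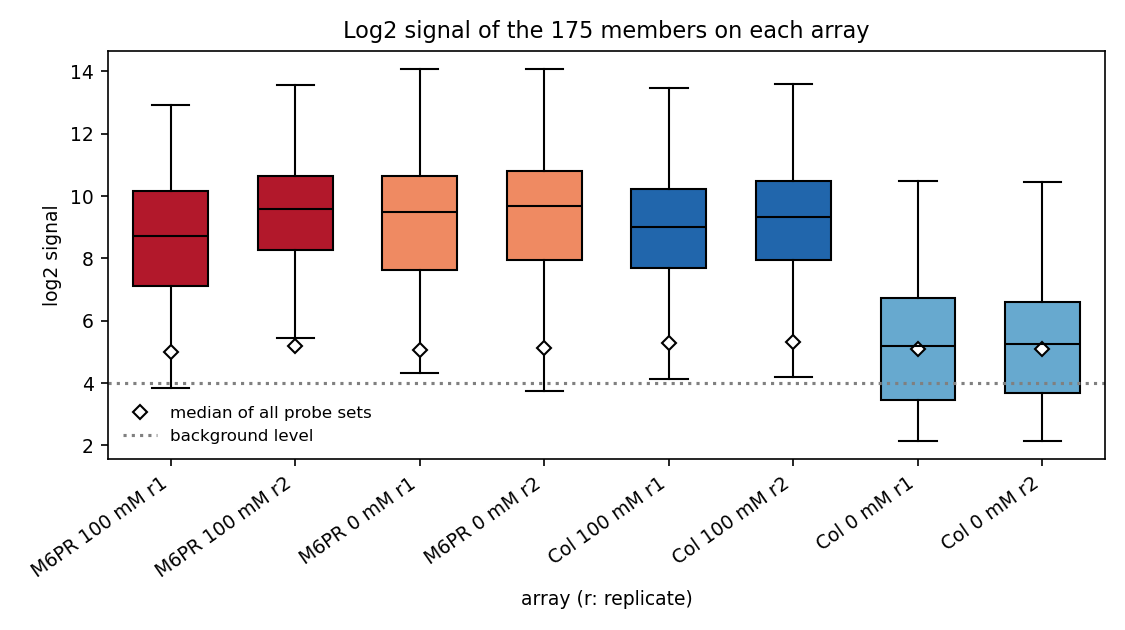
Log2 signal (vertical axis) of the 175 members on each of the 8 arrays, with boxes for the quartiles, a line for the median and whiskers to the lowest and highest member. Diamonds mark the median of all 22746 probe sets and the dotted line the background level of 4. Both Col 0 mM boxes have medians near 5.2, and the medians of the other arrays lie between 8.72 and 9.67.

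Of the 175 members, 70 had 1 gene in the table, all found in the RefSeq annotation, 4 had several genes and 101 had none. Of the 70 genes, 9 carry a symbol or a named synonym and 61 a locus tag alone, and no role is given here to those 61. The widest gap of all, 7.94 log2 units, belonged to a probe set without a gene, 247925_at. It had 12.71 and 13.58 in M6PR 100 mM, 13.71 and 13.89 in M6PR 0 mM, 13.14 and 13.19 in Col 100 mM, and 4.78 and 3.94 in Col 0 mM. Its mean signal was 442-fold that of Col 0 mM in M6PR 100 mM, 695-fold in M6PR 0 mM and 447-fold in Col 100 mM. The median gap was 2.16 for members with 1 gene and 2.38 for members with none. The 70 genes lay on all 5 chromosomes, with 24 of 3218 measured genes on chromosome 1, 16 of 1869 on chromosome 2, 15 of 2512 on chromosome 3, 6 of 1761 on chromosome 4 and 9 of 2864 on chromosome 5.

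**Figure D2:**
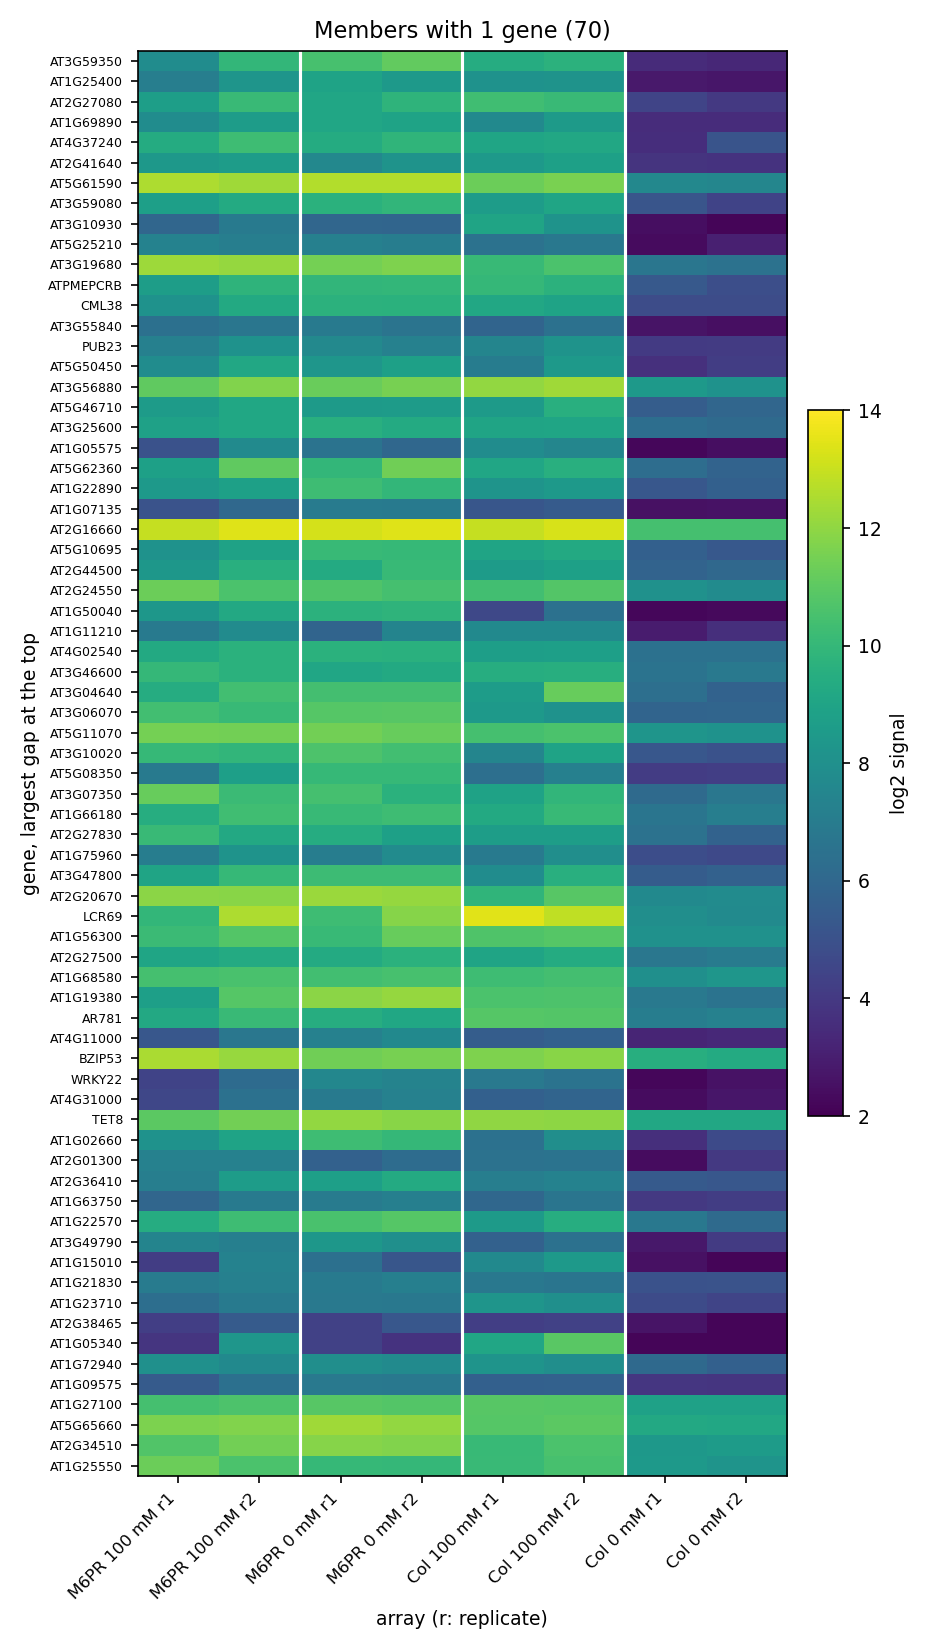
Log2 signal (colour) of the 70 members with 1 gene, in rows from the largest gap at the top, on the 8 arrays in columns, with white lines between groups. The 2 columns of Col 0 mM are darker than the other 6 in every row, and the rows at the top differ most.

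Of the calcium sensors in the gene lists given below, the measured one that was a member was CML38, a calmodulin-like protein. Members outside the lists or without a gene may hold others. CML38 had 8.11 and 9.29 in M6PR 100 mM, 9.72 and 9.67 in M6PR 0 mM, 9.18 and 8.97 in Col 100 mM, and 4.80 and 4.79 in Col 0 mM. Its fold over Col 0 mM was 14.9 in M6PR 100 mM (22.5 without replicate 1), 29.8 in M6PR 0 mM and 19.3 in Col 100 mM. Of the listed wall genes measured, the member was ATPMEPCRB, also named pectin methylesterase 41, which removes methyl groups from pectin. It had 8.70 and 9.79 in M6PR 100 mM, 9.88 and 9.94 in M6PR 0 mM, 10.01 and 9.70 in Col 100 mM, and 5.37 and 4.89 in Col 0 mM. In both CML38 and ATPMEPCRB the lowest of the 6 high arrays was replicate 1 of M6PR 100 mM.

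PUB23 is a U-box ubiquitin ligase that damps the immune response to microbial patterns. It had 7.21 and 8.13 in M6PR 100 mM, 7.64 and 7.25 in M6PR 0 mM, 7.48 and 8.18 in Col 100 mM, and 4.05 and 4.09 in Col 0 mM, and the 3 high groups overlapped one another. Its fold over Col 0 mM was 12.1 in M6PR 100 mM, 10.4 in M6PR 0 mM and 13.5 in Col 100 mM. The related ligases PUB22 and PUB24, which act with PUB23 in immunity, were measured too and were no members. PUB22 stayed between 2.15 and 2.46 on all 8 arrays, below background. PUB24 had 3.89 and 5.47 in M6PR 100 mM, 6.33 and 6.64 in M6PR 0 mM, 5.32 and 5.13 in Col 100 mM, and 5.23 and 5.06 in Col 0 mM, so Col 0 mM was not set apart.

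Transcription factors made up 3 of the 9 genes with a name. AT5G61590, which carries the synonym DEWAX and is an AP2/ERF factor that lowers wax synthesis, had 12.53 and 12.27 in M6PR 100 mM, 12.63 and 12.60 in M6PR 0 mM, 11.29 and 11.58 in Col 100 mM, and 7.59 and 7.49 in Col 0 mM. It stood 29.0-fold (M6PR 100 mM), 33.7-fold (M6PR 0 mM) and 14.9-fold (Col 100 mM) above Col 0 mM, and all 4 M6PR arrays lay above both Col 100 mM arrays. WRKY22, a WRKY factor of immune signalling, had 4.42 and 6.19 in M6PR 100 mM, 7.55 and 7.36 in M6PR 0 mM, 6.86 and 6.58 in Col 100 mM, and 2.22 and 2.59 in Col 0 mM. WRKY22 was below background in Col 0 mM, and its fold was at least 2.47 in M6PR 100 mM (at least 4.57 without replicate 1), at least 10.97 in M6PR 0 mM and at least 6.59 in Col 100 mM. BZIP53, a bZIP factor known from low-energy responses, had 12.47 and 12.17 in M6PR 100 mM, 11.40 and 11.53 in M6PR 0 mM, 11.70 and 11.86 in Col 100 mM, and 9.53 and 9.35 in Col 0 mM. BZIP53 was 7.33-fold above Col 0 mM in M6PR 100 mM, 4.07-fold in M6PR 0 mM and 5.06-fold in Col 100 mM.

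The remaining 3 genes with a symbol fell outside the rule for named genes and are given because they carry one, a choice made after their values were seen. TET8, a tetraspanin of membranes and secreted vesicles, averaged 11.22 ± 0.32 in M6PR 100 mM, 11.96 ± 0.12 in M6PR 0 mM, 11.97 ± 0.05 in Col 100 mM and 9.20 ± 0.01 in Col 0 mM (SD, n = 2 each). LCR69, also called PDF2.2, a small cysteine-rich protein of the defensin type, had 9.94 and 12.54 in M6PR 100 mM, 10.26 and 11.83 in M6PR 0 mM, 13.48 and 12.86 in Col 100 mM, and 7.91 and 7.75 in Col 0 mM. AR781 averaged 9.69 ± 0.61 in M6PR 100 mM, 9.31 ± 0.23 in M6PR 0 mM, 10.83 ± 0.03 in Col 100 mM and 7.17 ± 0.13 in Col 0 mM (SD, n = 2 each). LCR69 and AR781 were brightest in Col 100 mM, while TET8 was nearly equal in M6PR 0 mM and Col 100 mM.

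Among the genes known by locus tag, AT3G59350 had a gap of 4.36 log2 units, with Col 0 mM below background. Counted from the background level its gap was 3.83, less than the 4.24 of AT2G27080 and the 3.98 of AT4G37240, so these gaps have no settled order. AT3G59350 had 7.83 and 9.95 in M6PR 100 mM, 10.50 and 11.10 in M6PR 0 mM, 9.44 and 9.71 in Col 100 mM, and 3.47 and 3.35 in Col 0 mM. Its fold over Col 0 mM was at least 29.7 in M6PR 100 mM (at least 61.7 without replicate 1), at least 112 in M6PR 0 mM and at least 47.6 in Col 100 mM. AT1G25400 was also below background in Col 0 mM, with 7.12 and 8.27 in M6PR 100 mM, 8.95 and 8.48 in M6PR 0 mM, 8.14 and 8.15 in Col 100 mM, and 2.83 and 2.74 in Col 0 mM. In both genes M6PR 0 mM lay above M6PR 100 mM with no overlap, and replicate 1 of M6PR 100 mM was the lowest of the 6. AT2G27080 had 8.72 and 10.12 in M6PR 100 mM, 9.10 and 9.80 in M6PR 0 mM, 10.34 and 10.11 in Col 100 mM, and 4.48 and 4.002 in Col 0 mM. That gene was 36.2-fold above Col 0 mM in M6PR 100 mM (58.9-fold without replicate 1), 36.9-fold in M6PR 0 mM and 63.3-fold in Col 100 mM, the group with the highest mean.

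AT1G69890, AT4G37240, AT2G41640, AT3G59080 and AT5G25210 had gaps of 4.21, 3.98, 3.78, 3.47 and 3.45, and AT1G69890, AT2G41640 and AT5G25210 were below background in Col 0 mM. AT1G69890 was at 3.504 on both Col 0 mM arrays and between 7.71 and 9.09 on the other 6. AT4G37240 had Col 0 mM replicates 3.58 and 5.09, the widest split of that group among the named members, and lay between 9.08 and 10.26 elsewhere. AT2G41640 ran from 7.59 to 8.83 outside Col 0 mM, where it had 3.801 and 3.74. These 3 were steady across the 6 high arrays in comparison with the members as a whole, whose range over those arrays had a median of 2.04 log2 units. AT3G59080 averaged 9.05 ± 0.42 in M6PR 100 mM, 9.76 ± 0.17 in M6PR 0 mM, 8.85 ± 0.30 in Col 100 mM and 4.80 ± 0.53 in Col 0 mM (SD, n = 2 each). AT5G25210 averaged 7.23 ± 0.13 in M6PR 100 mM, 7.16 ± 0.13 in M6PR 0 mM, 6.66 ± 0.21 in Col 100 mM and 2.71 ± 0.49 in Col 0 mM (SD, n = 2 each).

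AT3G10930 and AT3G19680 showed opposite orders of the high groups. AT3G10930 had 5.98 and 6.95 in M6PR 100 mM, 5.98 and 5.92 in M6PR 0 mM, 8.99 and 8.14 in Col 100 mM, and 2.46 and 2.15 in Col 0 mM. AT3G19680 had 12.25 and 12.11 in M6PR 100 mM, 11.48 and 11.68 in M6PR 0 mM, 10.07 and 10.62 in Col 100 mM, and 6.72 and 6.54 in Col 0 mM. The first was highest in Col 100 mM and the second in M6PR, and in both the M6PR arrays did not overlap those of Col 100 mM.

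**Figure D3:**
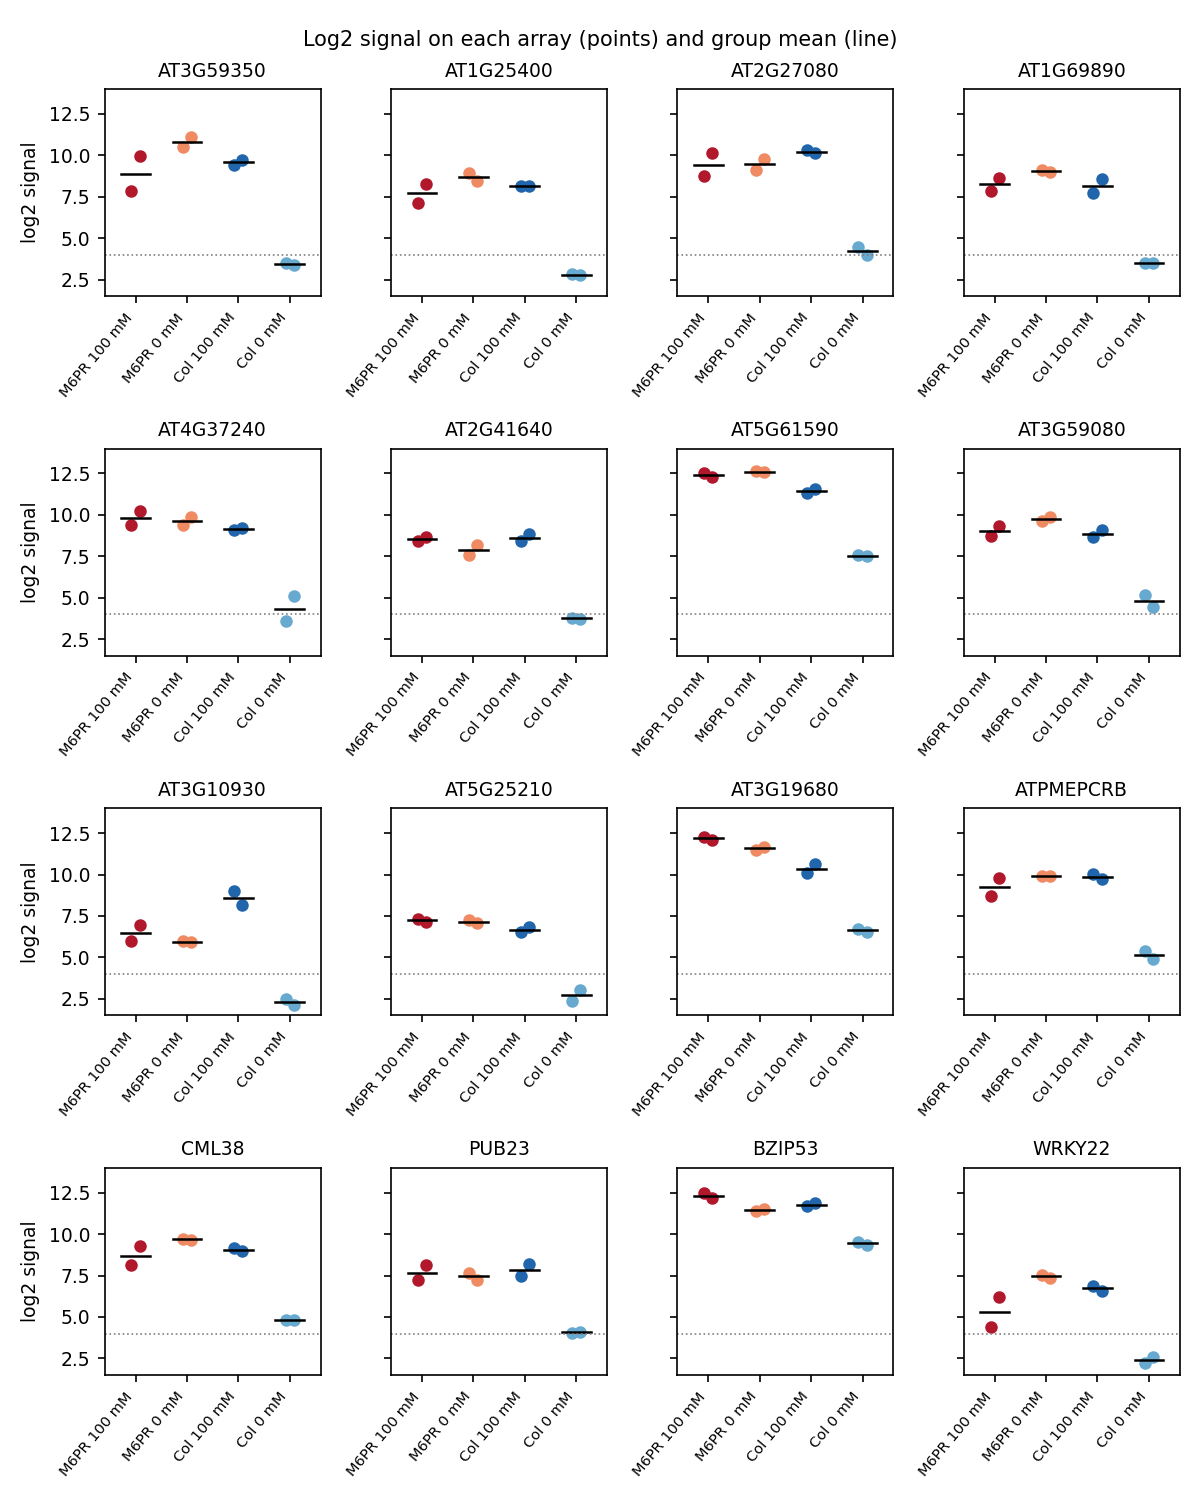
Log2 signal (vertical axis) of 16 named members in the 4 groups, with a point for each array, a line for the group mean and a dotted line at the background level of 4. Each panel is 1 gene. Col 0 mM lies lowest in all 16, and the order of the other groups differs, with Col 100 mM highest for AT3G10930 and M6PR 100 mM highest for AT3G19680 and BZIP53.

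The level outside Col 0 mM was not one plateau. The range of a member over the 6 high arrays ran from 0.14 to 7.16 log2 units. The widest with 1 gene was AT1G05340, which had 3.84 and 8.29 in M6PR 100 mM, 4.31 and 3.76 in M6PR 0 mM, 9.12 and 10.92 in Col 100 mM, and 2.15 on both Col 0 mM arrays. AT1G50040 had 8.34 and 9.24 in M6PR 100 mM, 9.70 and 9.82 in M6PR 0 mM, 4.60 and 6.46 in Col 100 mM, and 2.21 and 2.32 in Col 0 mM. AT1G05340 was highest in Col 100 mM and AT1G50040 in M6PR, and both met the threshold. AT1G15010 was the third of the widest, with 4.16 and 7.33 in M6PR 100 mM, 6.41 and 5.19 in M6PR 0 mM, 7.72 and 8.47 in Col 100 mM, and 2.55 and 2.15 in Col 0 mM. Its gap counted from the background level was 0.16. The steadiest with 1 gene were AT1G68580, AT1G27100 and AT2G16660. AT1G68580 lay between 10.27 and 10.57 on the 6 arrays, against 7.96 and 8.31 in Col 0 mM. AT1G27100 lay between 10.45 and 10.90, against 8.87 and 8.88, and AT2G16660 between 12.94 and 13.43, against 10.48 and 10.47. The range over the 6 arrays was 0.30 for AT1G68580, 0.46 for AT1G27100 and 0.50 for AT2G16660.

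Of the 3 high groups, M6PR 0 mM had the highest mean in 95 members, Col 100 mM in 46 and M6PR 100 mM in 34. The lowest of the 3 was Col 100 mM in 79, M6PR 100 mM in 55 and M6PR 0 mM in 41. Without replicate 1 of M6PR 100 mM, the highest was M6PR 0 mM in 81, M6PR 100 mM in 61 and Col 100 mM in 33, and the lowest was Col 100 mM in 103, M6PR 0 mM in 56 and M6PR 100 mM in 16. Single arrays set many of the gaps: replicate 1 of M6PR 100 mM was the lowest of the 6 in 74 members and replicate 1 of Col 100 mM in 65. The median SD of replicates over the members was 0.60 in M6PR 100 mM, 0.20 in M6PR 0 mM, 0.26 in Col 100 mM and 0.17 in Col 0 mM. Over all probe sets it was 0.110, 0.0592, 0.0962 and 0.0521. The latter include the 27.9% to 29.2% near the floor, where replicates barely differ, and members were not compared with probe sets of like signal.

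Near the threshold, the members just inside were AT1G25550 and AT2G34510, each with a gap of 1.50, and AT5G65660 with 1.57. The probe sets just outside were AT5G42200, with 1.49, and BZIP61 and AT1G70740, each with 1.48. AT1G25550 had 11.30 and 10.61 in M6PR 100 mM, 10.06 and 9.99 in M6PR 0 mM, 10.14 and 10.52 in Col 100 mM, and 8.49 and 8.19 in Col 0 mM. AT5G42200 had 7.70 and 7.30 in M6PR 100 mM, 7.16 and 6.98 in M6PR 0 mM, 5.47 and 6.27 in Col 100 mM, and 3.82 and 3.98 in Col 0 mM. Col 0 mM lay below the other 6 arrays in both. Without replicate 1 of M6PR 100 mM the threshold admitted 267 probe sets, with all 175 among them, and 322 without that array and replicate 1 of Col 100 mM.

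The same threshold was applied to each other group, with no gene left out. It found 0 probe sets low and 0 high in M6PR 100 mM alone, 17 low and 50 high in M6PR 0 mM alone, 11 low and 87 high in Col 100 mM alone, and 189 low and 79 high in Col 0 mM alone. Of all 8 patterns, low in Col 0 mM alone was thus the one with most probe sets. Without replicate 1 of M6PR 100 mM the counts were 1 low and 1 high in M6PR 100 mM alone, 22 and 53 in M6PR 0 mM, 12 and 90 in Col 100 mM, and 283 and 193 in Col 0 mM.

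**Figure D4:**
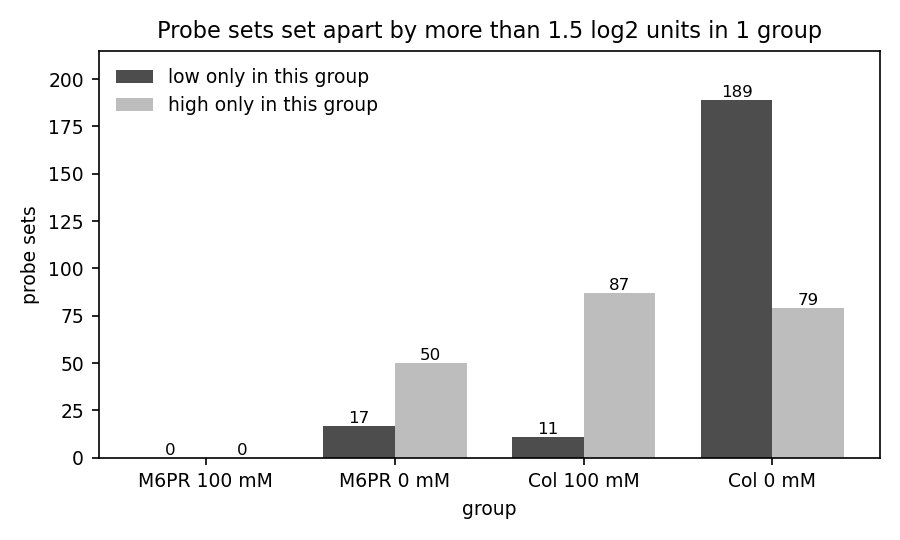
Number of probe sets (vertical axis, from 0) that 1 group alone sets apart by more than 1.5 log2 units from all arrays of the other groups, for low (dark bars) and high (light bars). Left-out genes are included, so Col 0 mM has 189 low, beside 79 high, and no other bar exceeds 87.

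Differences among the 3 high groups were not used to choose the members and were tested with limma over all 22746 probe sets. A member is called where its Benjamini-Hochberg adjusted p is under 0.05. For salt within the line, M6PR 100 mM against M6PR 0 mM, limma called 0 of the 175 members, where it called 0.171% of all probe sets, and 51 members (29.1%) had an unadjusted p under 0.05, as did 10.6% of all probe sets. The median difference was -0.30 log2 units, where all probe sets had 0. In the shares and group orders given here and below, all probe sets include those at or near the floor. In group orders, those tied there lie neither above nor below. For unadjusted p, members were not compared with probe sets of like signal. Both M6PR 100 mM arrays lay below both M6PR 0 mM arrays in 71 members (40.6%, where 15.7% of all probe sets did), above them in 33 (18.9%, where 12.7% did) and overlapped in 71. Without replicate 1, the remaining M6PR 100 mM array lay below both in 75 (42.9%, where 25.6% of all probe sets did) and above both in 73 (41.7%, where 28.4% did). WRKY22 was lower in M6PR 100 mM by 2.15 log2 units (SE 0.62, adjusted p 0.335), AT3G59350 by 1.91 (SE 0.75, adjusted p 0.503) and AT1G22890 by 1.47 (SE 0.23, adjusted p 0.137), and BZIP53 was higher by 0.85 (SE 0.14, adjusted p 0.141). None of these 4 passed. Without replicate 1 of M6PR 100 mM the change was -1.26 for WRKY22 and -0.85 for AT3G59350. That fit called 3 members, all lower, and 0.615% of all probe sets, with a member median of 0.04. Without replicate 2, which leaves the array that stood apart, 25 were called, 24 of them lower, with a median of -0.73, and 3.64% of all probe sets were called.

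For the lines under salt, M6PR 100 mM against Col 100 mM, limma called 1 member, or 0.571%, where it called 0.136% of all probe sets, and 44 (25.1%) had an unadjusted p under 0.05, as did 13.0% of all probe sets. The called member was the unnamed probe set 260126_at, with 11.86 and 11.77 in M6PR 100 mM, 11.79 and 11.97 in M6PR 0 mM, 9.94 and 10.09 in Col 100 mM, and 7.07 and 6.96 in Col 0 mM. That probe set was higher in M6PR 100 mM than in Col 100 mM by 1.80 log2 units (SE 0.096, adjusted p 0.0229, from 0.00918 to 0.319 over 16 alternatives). The call was lost in 9 of them, among these leaving out M6PR 100 mM replicate 1, either M6PR 0 mM array or either Col 0 mM array. AT3G06070 came next among named members, with a difference of 1.93 (SE 0.15, adjusted p 0.0606). The median over the members was 0.09. Both M6PR 100 mM arrays lay above both Col 100 mM arrays in 52 members (29.7%, where 15.4% of all probe sets did), below them in 33 (18.9%, where 19.1% did) and overlapped in 90. Without replicate 1, the remaining M6PR 100 mM array lay above both in 113 (64.6%, where 24.4% of all probe sets did) and below both in 34 (19.4%, where 25.8% did). The count and the sign of the median rested on single arrays. Leaving out M6PR 100 mM replicate 1 gave 4 calls (0.47% of all probe sets), and its replicate 2 gave 21 (5 higher and 16 lower, median -0.28, 4.46% of all). Leaving out Col 100 mM replicate 1 gave 3 (median -0.03, 1.61% of all) and replicate 2 gave 11 (5.33% of all), while dropping any one array of M6PR 0 mM or Col 0 mM gave 0.

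The third comparison set M6PR 0 mM against Col 100 mM, which differ in line and in salt and were both high by the choice of members. Here limma called 18 members, or 10.3%, where it called 4.79% of all probe sets and 6.99% of the 12260 whose means were at or above background in the 3 high groups. Of the 18, 15 were higher in M6PR 0 mM (3.09% of all probe sets were) and 3 lower (1.7% were). With a further quantile normalization 19 were higher and 8 lower, where 929 and 437 of all probe sets were, or 6.01% in either direction. The median over the members was 0.47, where all probe sets had 0. Both M6PR 0 mM arrays lay above both Col 100 mM arrays in 95 members (54.3%, where 22.4% of all probe sets did), below them in 45 (25.7%, where 24.9% did) and overlapped in 35. The count moved with single arrays: leaving out either M6PR 100 mM array gave 41 (6.33% of all probe sets), M6PR 0 mM replicate 1 gave 2 (1.49%) and replicate 2 gave 5 (2.95%). Leaving out Col 100 mM replicate 1 gave 5 (3.44%), and either Col 0 mM array gave 2 (0.655%).

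Of the 18, 6 had 1 gene, and all 6 were higher in M6PR 0 mM. AT3G06070 had 10.35 and 10.07 in M6PR 100 mM, 10.85 and 10.88 in M6PR 0 mM, 8.46 and 8.10 in Col 100 mM, and 5.87 and 5.91 in Col 0 mM. It was higher in M6PR 0 mM than in Col 100 mM by 2.58 log2 units (SE 0.15, adjusted p 0.0107, from 0.00275 to 0.0925 over 16 alternatives). The M6PR arrays of AT3G06070 were all above those of Col 100 mM, which in turn were above those of Col 0 mM. AT1G22890 had 8.47 and 8.80 in M6PR 100 mM, 10.26 and 9.95 in M6PR 0 mM, 8.20 and 8.51 in Col 100 mM, and 5.27 and 5.69 in Col 0 mM. Its difference was 1.75 (SE 0.23, adjusted p 0.0373, from 0.00611 to 0.157 over the alternatives), and the 2 salted groups overlapped. AT5G65660 was higher by 1.26 (SE 0.10, adjusted p 0.0172, from 0.00441 to 0.119) and AT5G61590 by 1.18 (SE 0.14, adjusted p 0.0301, from 0.00993 to 0.135). The differences of AT4G02540 and AT5G11070 were 0.90 (SE 0.12, adjusted p 0.0380, from 0.00445 to 0.167) and 0.81 (SE 0.12, adjusted p 0.0416, from 0.0168 to 0.174). All 6 calls were lost when either array of Col 0 mM, which enters this test through the shared spread alone, was left out, and when only the compared groups were fitted. Leaving out M6PR 0 mM replicate 1 lost 5 of the 6 (all but AT3G06070) and its replicate 2 lost 4. Leaving out Col 100 mM replicate 1 lost 4, Col 100 mM replicate 2 lost 2 and either M6PR 100 mM array lost 1, AT5G11070. With the replicate number as a block 5 of the 6 were lost (all but AT3G06070), and with crossed numbers AT1G22890 and AT4G02540.

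The 3 called lower had no gene in the table. The largest, 266901_at, had 10.10 and 9.61 in M6PR 100 mM, 6.93 and 7.55 in M6PR 0 mM, 11.04 and 10.47 in Col 100 mM, and 4.83 and 4.18 in Col 0 mM. It was lower in M6PR 0 mM than in Col 100 mM by 3.52 log2 units (SE 0.39, adjusted p 0.0288, from 0.00656 to 0.125 over 16 alternatives), and both salted groups lay above M6PR 0 mM with no overlap. That call too was lost in 9 alternatives, among these leaving out either M6PR 0 mM array, Col 100 mM replicate 1 or either Col 0 mM array. Not called were the wide differences of AT1G50040 (4.23, SE 0.70, adjusted p 0.0531), AT3G10930 (-2.62, SE 0.45, adjusted p 0.0558), AT3G19680 (1.23, SE 0.21, adjusted p 0.0561) and AT2G34510 (1.42, SE 0.30, adjusted p 0.0764). CML38, PUB23, WRKY22, BZIP53 and ATPMEPCRB also missed the threshold, with differences of 0.62, -0.38, 0.74, -0.31 and 0.06 and adjusted p from 0.268 to 1.

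**Figure D5:**
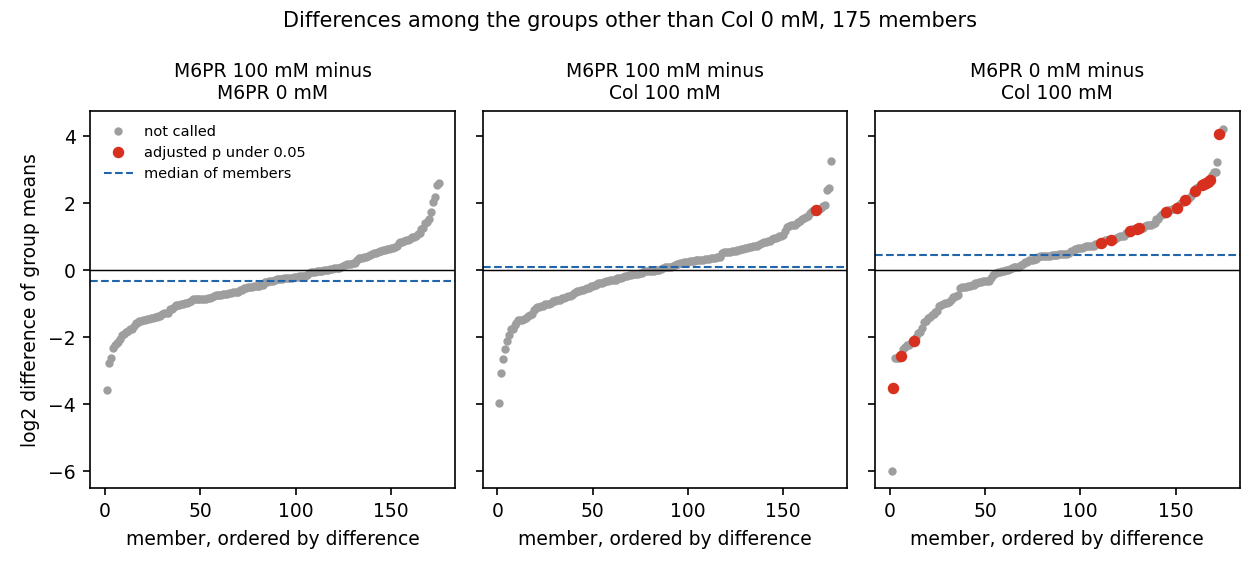
Log2 difference of group means (vertical axis) for the 175 members, ordered by size along the horizontal axis, in the 3 comparisons that were not used to choose them. Red points are called, 0 on the left, 1 in the middle and 18 on the right, and the dashed lines mark the members' medians of -0.30, 0.09 and 0.47.

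Other genes of the pathways came from 20 lists with 1098 genes, and 125 of these had their own probe set, 6 of them members (4.80%, where 0.769% of all probe sets were). Of the 13513 probe sets with 1 gene, 70 were members. The lists were written with earlier results of these data known, so shares of list genes, here and below, are descriptions only. The 6 were BZIP53 in sugar shortage and darkness (1 of 7 measured), CML38 in calcium sensors (1 of 10), AT5G61590 in AP2/ERF factors (1 of 6), WRKY22 in WRKY factors (1 of 6), PUB23 in defence (1 of 6) and ATPMEPCRB in cell wall remodelling (1 of 19). The lists of C2H2 zinc fingers and NAC factors had 0 measured genes, and the other 12 had 0 members. In all, 24 of the 125, the 6 members among them, had all 6 arrays above both Col 0 mM arrays, as did 6.96% of all probe sets.

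Some list genes had the members' order with a smaller gap. XTH16, a xyloglucan-modifying enzyme of the wall, had 4.96 and 7.58 in M6PR 100 mM, 7.22 and 7.52 in M6PR 0 mM, 8.47 and 7.502 in Col 100 mM, and 3.88 and 4.05 in Col 0 mM. ATG8E, an autophagy protein, had 8.04 and 7.90 in M6PR 100 mM, 9.95 and 9.53 in M6PR 0 mM, 7.62 and 7.28 in Col 100 mM, and 6.30 and 5.54 in Col 0 mM. The expansin EXPA4 had the opposite order, with 8.90 and 8.20 in M6PR 100 mM, 7.96 and 7.62 in M6PR 0 mM, 8.75 and 8.83 in Col 100 mM, and 10.16 and 10.12 in Col 0 mM. XTH16 and EXPA4, both of the wall list, thus had opposite orders.

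In the tests of the high groups, limma called 0 of the 125 list genes for salt in M6PR, where it called 0.171% of all probe sets. Of the 125, 24 had an unadjusted p under 0.05, as did 10.6% of all probe sets. Between the salted lines it called 1 (0.136% of all probe sets were called), CSLC12, with both groups below background. Between M6PR 0 mM and Col 100 mM it called 6 higher (3.09% of all probe sets were) and 10 lower (1.7% were). ATG8E was higher in M6PR 0 mM by 2.29 and ATL8, a RING-type ubiquitin ligase, by 1.73 log2 units (adjusted p 0.038 and 0.035), as were SAG101, LHCB4.3, PSAN and AT5G61590. Among those lower were the U-box ligase PUB19 (-4.25, adjusted p 0.017), the AP2/ERF factor ORA47 (-5.64, adjusted p 0.029) and the calmodulin-like CML23 (-2.62, adjusted p 0.033). PUB19 averaged 2.72 in M6PR 0 mM, below background, and 6.97 in Col 100 mM, so the size of its difference is not settled. Of the 10, CML37, LEA4-5, WES1, EXPA15 and CSLC12 were also below background in M6PR 0 mM, and CSLC12 in Col 100 mM too. ORA47 averaged 9.33 in M6PR 100 mM, 5.04 in M6PR 0 mM, 10.68 in Col 100 mM and 5.96 in Col 0 mM, so it was low in both unsalted groups and unlike the members. The median difference of the 125 was -0.03, 0 and 0 in the 3 comparisons. For list genes that were no members, the dependence of a call on single arrays or other alternatives was not examined.

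The correlation of each member with the mean of all members over the 8 arrays had a median of 0.948, from 0.615 to 0.999, and exceeded 0.9 in 138. These r describe a pattern that the threshold imposed. Of genes that were no members, those most alike by r over the 8 arrays were AT2G25735 (0.997) and EXLA1 (0.988), both left out by name, AT5G10900 (0.993) and AT4G25620 (0.988). AT5G10900 was below background on all 8 arrays. AT4G25620 had 8.14 and 8.58 in M6PR 100 mM, 8.70 and 8.55 in M6PR 0 mM, 8.43 and 8.74 in Col 100 mM, and 6.81 and 6.87 in Col 0 mM. Its gap of 1.27 log2 units placed it outside the members with the same order of groups.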

How the data were processed

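The authors deposited log2 intensities of 22810 probe sets on each array. GCOS and RMA are named, with no version, per the submitters' processing notes, and the background model and genome build are not given in the sources used here. The deposited log2 values were used unchanged. The 64 array controls were left out. Groups were taken from the sample titles. Genes were named from the array's annotation table, updated through RefSeq TAIR10.1, which served for names and chromosomes. Of the probe sets, 13513 had 1 gene, 503 several and 8730 none.

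A linear model with 4 group means was fitted to 22746 probe sets (R 4.3.3, limma 3.58.1). Variances were moderated by eBayes with 4 residual and 0.409 prior degrees of freedom, and two-sided p-values were adjusted by Benjamini-Hochberg. The fit was run on simulated data, where the median estimate of planted changes had to lie near the planted size. No limit was set there on missed or false calls. Tables and figures were made with Python 3.11.15.

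The members, the gene lists and the background level were chosen with earlier results of these data known. Named members were those with the largest gaps (12 in all, 8 bright in Col 0 mM), those called, list members, the 3 on each side of the threshold and the 3 widest and 3 steadiest, 29 in all. Same-numbered replicates deviated with r from -0.15 to 0.49 over 6 pairs of groups. The 0.49 was between M6PR 100 mM and M6PR 0 mM, and the other pairs had r of 0.08 or less. The numbers were not taken as pairs, and a block within M6PR alone was not fitted. Alternatives were other thresholds, further normalization, a filter on dim probe sets, other variance settings, the replicate block, only the compared groups and each array left out. Added after seeing the data were leaving out 2 doubted arrays, a crossed block, further values without M6PR 100 mM replicate 1 and gaps counted from the background level. No sequences were analysed here, and the planned motif search was not run.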

Additional observations from a re-analysis of the deposited data

Results flagged for a closer look

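For 14 of the 29 named members, both M6PR 100 mM arrays lay below both M6PR 0 mM arrays (as in 71 of 175 members and 15.7% of all probe sets), while in Col both salted arrays lay above both unsalted ones. The Col direction was fixed by the choice of members, so the difference between the lines in the salt response was not tested, and limma called 0 of these changes in M6PR (51 of 175 members and 10.6% of all probe sets had an unadjusted p under 0.05). The log2 change with salt in M6PR was -1.91 for AT3G59350, -1.01 for AT1G25400, -0.78 for AT1G69890, -0.22 for AT5G61590, -0.71 for AT3G59080 and -0.67 for ATPMEPCRB. It was -0.996 for CML38, -1.47 for AT1G22890, -0.97 for AT1G50040, -0.66 for AT3G06070 and -2.15 for WRKY22. Among the steadiest and the threshold genes it was -0.29 for AT1G27100, -0.48 for AT5G65660 and -0.68 for AT2G34510. Without replicate 1 of M6PR 100 mM, 10 of the 14 changes were over 1.5 times smaller: -0.85 for AT3G59350, -0.44 for AT1G25400, -0.39 for AT1G69890, -0.41 for AT3G59080, -0.12 for ATPMEPCRB, -0.41 for CML38, -0.52 for AT1G50040, -1.26 for WRKY22, -0.18 for AT1G27100 and -0.35 for AT2G34510. That of AT5G61590 was -0.35. All 14 stayed negative by the way they were picked, since each M6PR 100 mM array lay below both M6PR 0 mM arrays. In Col the change with salt ran from 1.68 for AT5G65660 to 4.73 for ATPMEPCRB in the 9 genes at or above background in Col 0 mM. In the other 5 it was at least 1.53 (AT1G50040) to at least 5.57 (AT3G59350). In the members as a whole, replicate 1 of M6PR 100 mM was the lowest of the 6 high arrays in 74 of 175.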

How the results depend on the processing

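The number of members was 301 at a gap over 1 and 110 at a gap over 2, 175 to 267 after dropping any 1 array and 322 without both doubted arrays (M6PR 100 mM replicate 1 and Col 100 mM replicate 1). Members called for salt in M6PR numbered 3 without the dimmest 25% of probe sets, 7 after centring on array medians, 0 to 25 without single arrays and 5 without both doubted arrays. For the salted lines they were 4, 7, 0 to 21 and 7 under the same 4 alternatives, and 0 with only the compared groups. For M6PR 0 mM against Col 100 mM they were 53, 66 and 2 to 41 under the first 3, and 4 with only the compared groups, where all probe sets called were 16.0%, 13.6%, 0.655% to 9.92% and 0.387%, beside 4.79%. For salt in M6PR those shares were 0.68%, 1.07%, 0.044% to 3.64% and 1.91% in the order given, beside 0.171%, and for the salted lines 0.41%, 0.611%, 0.0308% to 5.33%, 2.58% and 0%, beside 0.136%. Centring moved the median of all probe sets to 0.20 and 0.21 in the last 2 comparisons. With the replicate block the counts were 0, 0 and 5 (0.0572%, 0.0132% and 1.24% of all probe sets), and with a crossed pairing 0, 0 and 9 (0.0352%, 0.0132% and 3.2%). Medians without single arrays ran from -0.73 to 0.04, from -0.28 to 0.48 and from 0.34 to 0.57. Fits with an array left out have fewer residual degrees of freedom, and the cause of the other shifts was not tested. Of 1392 alternatives for single genes, 1273 kept a call, or stayed uncalled and moved by no more than the replicate spread. Another 45 lost a call, 47 gained one and 27 stayed uncalled but moved by more than that spread. Of the 29 named members, 23 were called in no comparison of the main fit. Most of the 1273 were thus results that stayed uncalled, and the 45 fell on the calls of the remaining named members. Direction was compared only where a call was made, and 0 of those reversed. Uncalled differences could change sign. No pseudocount applies to log2 values. Signal near the floor hides decreases, so levels below 4 have no order.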
